A study of Mus musculus with 14 samples.

Results

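Bivalent regions are H3K4me3 peaks that also carry H3K27me3. In LEPC cells, a mouse line of strain C57BL/6 at 3 passages, they were taken as the H3K4me3 peaks of the control, labelled scr, that overlapped a scr H3K27me3 peak by at least 1 bp and also overlapped an H3K4me3 peak of cells overexpressing miR-93-5p. This gave 551 regions of 14595 scr H3K4me3 peaks, on the mouse build mm9. The regions were thus selected on H3K4me3 calls of both states and H3K27me3 calls of scr, and these are given as description. The line was profiled in 3 states, which were scr, cells that overexpressed miR-93-5p, and cells with a mutated form of it, named mutant in what follows. The labels name no treatment beyond these genotypes and no vector or clone. Chromatin immunoprecipitation for H3K4me3, H3K27me3 and H3K9me3 covered scr and miR-93-5p, RNA-seq covered all 3 states, and no mutant chromatin was analysed here. Each combination of assay and state had 1 library, so every difference below is one between 2 libraries, with no replicate error, no test and no p-value.

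H3K4me3 is laid down at the starts of active and poised genes by the MLL and SET1 methylases, and H3K27me3 by Polycomb repressive complex 2 (PRC2), whose mark is read by PRC1. Regions with both marks were first described in embryonic stem cells, where they lie at CpG-rich starts of developmental regulators that are silent or weakly transcribed, and they are known to resolve to either mark as cells differentiate. In cancer cells many such genes are known to gain DNA methylation. Here the marks were called in separate libraries of cell populations, so whether they sat on the same allele or in the same cell cannot be told apart.

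The mature microRNA that was overexpressed is shown with its seed, bases 2 to 8, in capitals, as RefSeq gives it for GRCm38.p6 (chr5:138165574-138165596, minus strand).
mmu-miR-93-5p: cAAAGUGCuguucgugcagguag

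Of the 551 regions, 118 also overlapped an H3K27me3 peak in miR-93-5p by at least 1 bp and are called kept, and 433 did not. The 250 bases before the start of 6 genes on such regions are printed below as description, with each CG in capitals. The letters CG read the same on both strands and are the dinucleotide that sets a CpG-rich start. The sequences are RefSeq's for GRCm38.p6 and the peaks are on mm9, so they were not placed relative to the peaks. The FPKM ratio named at Uchl1 is the largest in size and is a fall, with a log2 ratio of -3.55 in miR-93-5p over scr.
Emx2, kept, with the most H3K27me3 in miR-93-5p of all regions, chr19:59458440-59458689 (+ strand): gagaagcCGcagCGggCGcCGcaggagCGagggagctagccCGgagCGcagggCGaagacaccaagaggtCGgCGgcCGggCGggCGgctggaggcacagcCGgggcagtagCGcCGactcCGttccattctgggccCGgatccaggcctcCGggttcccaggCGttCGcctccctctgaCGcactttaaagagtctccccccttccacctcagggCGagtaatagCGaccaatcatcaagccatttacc
Axin2, kept, chr11:108920099-108920348 (+ strand): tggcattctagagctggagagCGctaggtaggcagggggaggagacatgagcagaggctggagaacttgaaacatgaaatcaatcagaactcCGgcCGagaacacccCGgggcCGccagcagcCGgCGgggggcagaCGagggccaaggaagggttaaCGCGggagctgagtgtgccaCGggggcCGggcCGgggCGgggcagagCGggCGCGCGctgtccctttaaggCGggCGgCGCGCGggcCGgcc
Uchl1, kept, with the largest FPKM ratio, chr5:66675871-66676120 (+ strand): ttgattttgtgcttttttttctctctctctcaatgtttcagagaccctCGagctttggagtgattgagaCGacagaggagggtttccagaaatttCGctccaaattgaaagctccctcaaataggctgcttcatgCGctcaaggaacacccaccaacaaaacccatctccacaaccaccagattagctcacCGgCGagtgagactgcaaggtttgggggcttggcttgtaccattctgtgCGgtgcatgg
Wnt7a, not kept, wholly covered by H3K27me3 in scr, chr6:91411354-91411603 (− strand): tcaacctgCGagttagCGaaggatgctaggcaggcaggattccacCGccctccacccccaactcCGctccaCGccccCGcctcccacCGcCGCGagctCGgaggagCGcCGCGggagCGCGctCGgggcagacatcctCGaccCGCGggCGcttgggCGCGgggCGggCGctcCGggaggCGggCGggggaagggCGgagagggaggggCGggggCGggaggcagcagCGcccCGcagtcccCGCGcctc
Mt2, not kept, lower RNA in miR-93-5p, chr8:94172368-94172617 (+ strand): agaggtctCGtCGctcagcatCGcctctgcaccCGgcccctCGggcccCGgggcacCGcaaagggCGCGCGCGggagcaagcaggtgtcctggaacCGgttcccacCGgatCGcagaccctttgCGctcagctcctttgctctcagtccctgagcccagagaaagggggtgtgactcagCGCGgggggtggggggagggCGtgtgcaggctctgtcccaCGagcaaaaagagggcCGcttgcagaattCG
Slc27a1, not kept, higher RNA in miR-93-5p, the first of 3 starts listed, chr8:71568621-71568870 (+ strand): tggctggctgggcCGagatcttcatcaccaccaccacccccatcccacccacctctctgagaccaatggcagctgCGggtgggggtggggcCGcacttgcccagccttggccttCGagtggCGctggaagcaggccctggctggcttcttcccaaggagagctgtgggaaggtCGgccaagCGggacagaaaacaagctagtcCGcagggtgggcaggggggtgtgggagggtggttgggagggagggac
These 6 stretches held 24, 24, 7, 34, 21 and 8 CG in the order printed, where the median over 32851 listed starts was 6 and 92.1% held at least 1. The starts of Wnt7a, Emx2, Axin2 and Mt2 were thus richer in CG than the median listed start, and those of Uchl1 and Slc27a1 were close to it. That median takes in listed starts of any gene, with or without H3K4me3. It does not say how the 6 starts compare with those of other H3K4me3 genes. Only 295 of the 405 genes on bivalent regions (72.8%) had a listed start, so a comparison of CpG content between classes of genes is void and none is given.

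The choice of regions ran as follows. Of the scr H3K4me3 peaks, 616 (4.22%) overlapped scr H3K27me3, and 551 of these overlapped an H3K4me3 peak in miR-93-5p, while 65 did not. Of all 14595 scr H3K4me3 peaks, 13851 (94.9%) overlapped an H3K4me3 peak in miR-93-5p. Just inside the rule were overlaps of 3, 9 and 10 bp, the second of them at Slc25a42, which encodes a mitochondrial carrier. Just outside were gaps of 1 bp at Smox, 5 bp at a peak with no gene, and 9 bp at Wipi1. The overlaps covered a wide range, with 255 regions (46.3%) having at least 50% of their bases in scr H3K27me3, 89 having all of them and 85 under 10%. In all, 43.1% of the bases of the bivalent regions lay in scr H3K27me3. The regions were served by 600 H3K27me3 peaks, 10 of which reached 2 regions, so that neighbours were not independent.

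Of the 551 regions, 383 lay within 1000 bp of an end of a protein-coding gene, 17 at an end of another listed gene, 52 inside a protein-coding locus and 99 outside. No strand is given for the mm9 gene loci, so an end can be a start or a finish. The regions were narrower than H3K4me3 peaks without H3K27me3. Their median width was 1811 bp, against 2475 bp for the 13300 peaks shared between the libraries without H3K27me3 in scr. The caller's score, the authors' own value for each peak, piled up at 3100 in 64.8% of those 13300 peaks and in 31.8% of the bivalent regions. Where the 2 H3K4me3 libraries were set side by side, 54.4% of bivalent regions and 37.2% of the other shared peaks were narrower in miR-93-5p than in scr.

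The widest region, 19281 bp at chr11:96131732-96151012, covered an end of Hoxb9, a homeobox factor that patterns the body axis. It held 6521 bp of H3K27me3 in scr and none in miR-93-5p. The next, 13339 bp, reached ends of Dnah2, a dynein heavy chain, and of Kdm6b, the demethylase that removes H3K27me3, but only 80 bp of it lay in scr H3K27me3. The next widest lay at Pcdh7, a protocadherin (6299 bp, kept), and at Snx18, a sorting nexin (6278 bp, not kept). The lowest H3K4me3 scores among the regions were 50.7, 53.7 and 56.4, at regions with no gene.

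Most bivalent regions had no called H3K27me3 after miR-93-5p overexpression. The 118 kept regions are 21.4% of the 551. Counted by H3K27me3 peak and not by region, 39.2% of the 600 scr peaks on bivalent regions were met anywhere along their length by a miR-93-5p H3K27me3 peak, beside 15082 of all 44412 scr peaks (34.0%). Of the bases of those 600 peaks 21.6% lay in a miR-93-5p peak, beside 20% for all scr H3K27me3 peaks. Of the bases of the bivalent regions 6.65% lay in miR-93-5p H3K27me3, beside the 43.1% in scr that the choice of regions draws on. Only 30 regions had at least 50% of their bases covered in miR-93-5p, and 2 were wholly covered, those at Rhpn1, a rhophilin, and at Pitx3, a homeobox factor of lens and dopamine neurons. New H3K27me3 was rare at the other shared H3K4me3 peaks, where 16 of 13300 (0.12%) carried it in miR-93-5p but not in scr.

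The 2 H3K27me3 lists differed in ways that stand beside every such share. They held similar numbers of peaks, 44412 in scr and 43501 in miR-93-5p, but the miR-93-5p peaks had a median width of 473 bp against 1049 bp and covered 23.7 Mb against 60.0 Mb, or 39.5% of the scr length. The part of this difference in the count of kept regions was not tested. When the scr list was limited to its highest-scoring peaks up to the length of the miR-93-5p list, 307 bivalent regions remained and 93 of them (30.3%) were kept. The H3K4me3 lists did not differ in this way, with 36.9 Mb covered in scr and 40 Mb in miR-93-5p. A wider window can only raise the share, and it came to 215 regions (39.0%) with a miR-93-5p H3K27me3 peak within 1000 bp and 345 (62.6%) within 5000 bp. The same shares were not counted for other H3K4me3 peaks, so these 2 values have no background beside them.

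**Figure D1:**
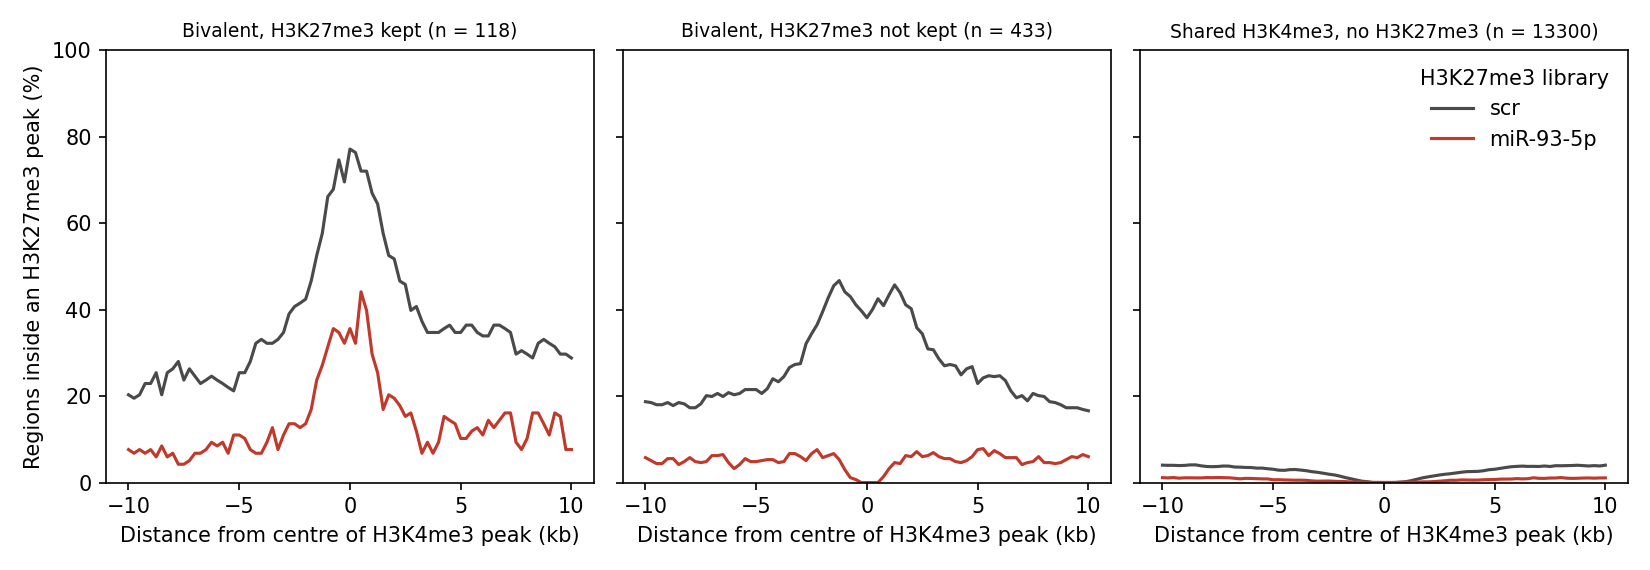
Share of regions, in percent, inside an H3K27me3 peak of scr (grey) or miR-93-5p (red) against distance in kb from the centre of the scr H3K4me3 peak, for 118 kept regions, 433 regions not kept and 13300 shared peaks without H3K27me3. The scr curve of kept regions peaks at the centre (77.1%), while that of regions not kept is lower at the centre (38.1%) than at 1 kb before it (44.1%).

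The plot of H3K27me3 around the regions showed different shapes in scr for the 2 classes. At the centre of kept regions, 77.1% lay inside a scr H3K27me3 peak and 35.6% inside one of miR-93-5p. At the centre of regions that were not kept, 38.1% lay inside a scr peak, and the share was higher, 44.1%, at 1 kb before the centre. In that class scr H3K27me3 thus sat more often on the flank than under the H3K4me3 centre, and the 0 of miR-93-5p at the centre is fixed by how the class was made. H3K27me3 also reached outward in scr, where between 16.6% and 28.8% of bivalent regions of either class lay in a peak at 10 kb from the centre. For the shared peaks without H3K27me3 the scr share stayed at or below 4.09% across the window.

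Kept regions differed from the rest in how much H3K27me3 they had in scr. Their median share of bases in scr H3K27me3 was 86.0%, against 33.8% in regions not kept, and the median width of their H3K27me3 peak was 2519 bp against 1712 bp. Their H3K4me3 was weaker, with 15.3% at a score of 3100 or more against 36.3%, and a median width of 1622 bp against 1883 bp. By the width of their scr H3K27me3 peak, 8.70% of regions were kept up to 1 kb, 16.8% from 1 to 2 kb, 25% from 2 to 4 kb and 39.5% above 4 kb. By H3K4me3 score the share was 18.8% up to 200, 31.7% to 1000, 26.7% above that, and 10.3% at 3100 or more. Among classes of H3K27me3 width the share kept was thus highest under the broadest peaks and lowest up to 1 kb. Among classes of H3K4me3 score it was lowest at the top of the scale.

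The share of scr H3K27me3 peaks met again in miR-93-5p was lower on bivalent regions than for peaks of like width on no H3K4me3 peak. Up to 1 kb wide, 11.9% of 84 peaks on bivalent regions and 19.2% of 20512 on no H3K4me3 peak were met again. From 1 to 2 kb the shares were 24.6% of 268 and 38% of 17083, and from 2 to 4 kb they were 55.7% of 176 and 66.5% of 5030. Above 4 kb they were 84.7% of 72 and 92.3% of 1118. The share was lower on bivalent regions in each of the 4 widths, yet over all widths it was higher, 39.2% against 33.9%, since wide peaks made up more of them. The same held in classes of score, from 11.1% against 20.3% up to 75 to 68.5% against 78.6% above 200.

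**Figure D2:**
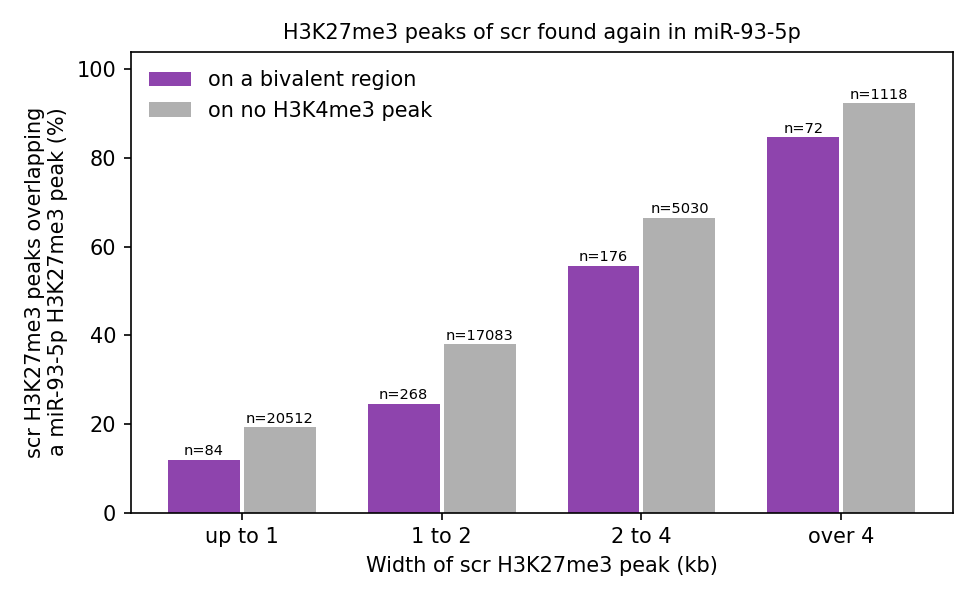
Share of scr H3K27me3 peaks, in percent, that overlapped a miR-93-5p H3K27me3 peak by at least 1 bp, by width of the scr peak in kb, on bivalent regions (purple) and on no H3K4me3 peak (grey), with the number of peaks above each bar. In each width class the purple bar is lower, from 11.9% against 19.2% up to 1 kb to 84.7% against 92.3% above 4 kb.

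Single regions show the range. Among kept regions, Emx2, a homeobox factor of cortex and urogenital tract, lay at chr19:59531885-59535427 with 3076 bp of H3K27me3 in scr and 3098 bp in miR-93-5p. At Nog, which encodes the BMP antagonist noggin (chr11:89163163-89164891), the lengths were 1726 and 1409 bp, and at Gldc, the glycine decarboxylase (chr19:30248530-30250440), 1302 and 1136 bp. These 3 retained most of the length, whereas others kept a fragment. At Axin2, the Wnt feedback inhibitor (chr11:108781087-108783989), H3K27me3 spanned 1673 bp in scr and 386 bp in miR-93-5p. At Kcnh3, a potassium channel gene (chr15:99053396-99055398), a scr peak of 16387 bp covered all 2003 bp of the region and 494 bp stayed covered.

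Regions not kept included several that were densely marked in scr. All 2793 bp at Wnt7a, a Wnt ligand (chr6:91359345-91362137), lay in a scr peak of 6698 bp, and no base lay in a miR-93-5p peak. The same held for 1502 of 1502 bp at Efna3, an ephrin ligand (chr3:89125677-89127178), for 1919 of 1919 bp at Slc9a3r2, a scaffold for membrane transporters (chr17:24785886-24787804), and for 1339 of 1339 bp at Mt2, a metallothionein (chr8:96695978-96697316). At Cbx8, a PRC1 subunit that reads H3K27me3 (chr11:118900911-118903738), 998 bp lay in a scr peak of 13911 bp and none in miR-93-5p. Wide and high-scoring H3K27me3 in scr was therefore found in regions of both classes.

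Regions were unevenly spread over chromosomes. Their share of scr H3K4me3 peaks ran from 0.851% on chromosome 14, with 4 regions and 0 kept, to 7.34% on chromosome 19, with 39 regions and 11 kept. The number of scr H3K27me3 peaks per H3K4me3 peak, which the rule draws on, ran from 0.482 on X to 5.06 on chromosome 6. Chromosomes 4, 12, 14 and X, picked after their values were seen, held 15.4% of H3K4me3 peaks but 5.18% of H3K27me3 peaks, and 1.33% of their H3K4me3 peaks were bivalent against 4.22% elsewhere. H3K9me3 peaks of scr were also few there, from 0.288 per H3K4me3 peak on X to 0.686 on chromosome 12. The part of the number of called peaks per chromosome in the share of bivalent regions was not tested.

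**Figure D3:**
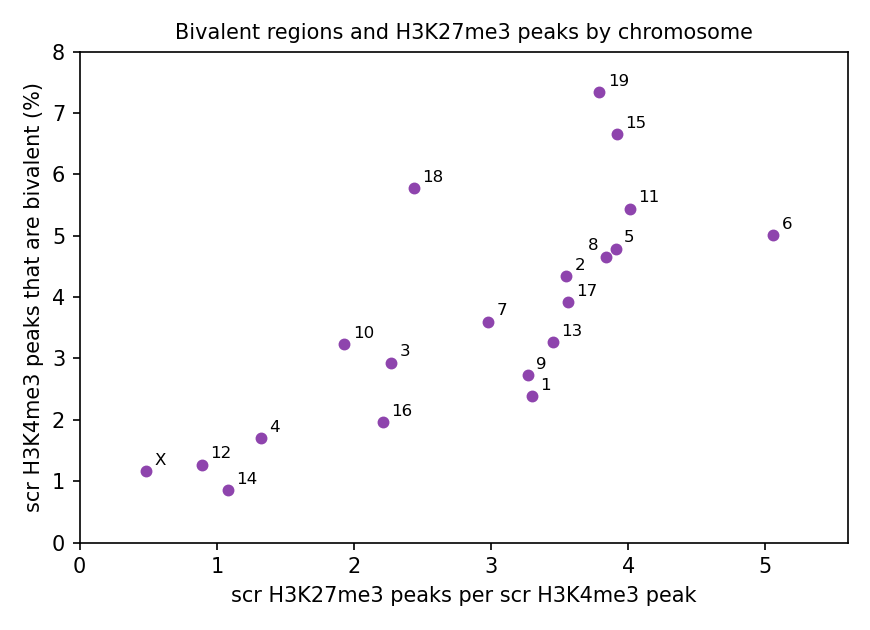
Share of scr H3K4me3 peaks that are bivalent, in percent, against the number of scr H3K27me3 peaks per scr H3K4me3 peak, with 1 point per chromosome. Chromosomes X, 12, 14 and 4 sit at the lower left, and chromosomes 19 and 15 have the highest shares, 7.34% and 6.65%.

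H3K9me3, the mark of constitutive heterochromatin, was not used to choose the regions. In scr it overlapped 15 of 551 regions (2.72%), where 1.45% of all scr H3K4me3 peaks overlapped it. In miR-93-5p it overlapped 43 (7.80%), where the share of all scr H3K4me3 peaks was 2.62%. Of the 15 regions with H3K9me3 in scr, 14 also had it in miR-93-5p, and the shares in miR-93-5p were 9.32% of kept and 7.39% of not kept regions. The H3K9me3 list of miR-93-5p was also longer, 39.2 Mb against 21.6 Mb, and the part of that in the difference was not tested. Among the 335 regions at score 100 or more in every list used, the scr share was 0.896%, or 3 regions. The share over all scr H3K4me3 peaks at that score was not counted, so this value has no background beside it.

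Some of the regions with H3K9me3 in miR-93-5p lay at regulators of development. Fzd6, a Wnt receptor, had 1286 bp of H3K9me3 in scr and 1532 bp in miR-93-5p, and Hoxa13 had 1856 and 2048 bp. At Tbx2, a T-box factor, H3K9me3 was absent from the scr list and spanned 1183 bp in miR-93-5p. At Uchl1, a neuronal ubiquitin hydrolase (chr5:67066814-67068630), it was likewise absent in scr and spanned 1317 bp in miR-93-5p, beside H3K27me3 of 1528 bp in scr and 893 bp in miR-93-5p. Uchl1 thus carried 3 called marks in the miR-93-5p lists.

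The regions touched 405 of 18493 protein-coding genes (2.19%), 89 on kept regions and 316 on regions not kept. Gene lists of known roles were set beside that 2.19%. Of 46 Wnt pathway genes found, 9 (19.6%) lay on bivalent regions. The kept ones were Axin2, the ligands Wnt1 and Wnt9a and the receptors Fzd4 and Ror1. Those not kept were Fzd6, the ligand Wnt7a, the stem cell receptor Lgr5 and the secreted inhibitor Wif1. Other developmental transcription factors gave 11 of 105 (10.5%), with 4 kept (Bcl11a, Id4, Nr2f1, Osr2) and 7 not kept (Hey1, Hey2, Neurog2, Prdm6, Sox5, Tbx18, Tbx2).

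Homeobox genes on bivalent regions were few in number, but their shares lay above the 2.19% of all protein-coding genes. Outside the Hox clusters 4 of 82 (4.88%) were on bivalent regions, Emx2, Lhx6, Pitx3 and Vax2, and all 4 were kept, while 15 carried H3K27me3 alone and 26 H3K4me3 alone. Of 39 listed Hox genes 27 were found, and 2 of these 27 (7.41%) were on bivalent regions, Hoxa13 and Hoxb9, neither kept. Fibroblast growth factor, Hedgehog and Notch genes gave 3 of 34 (Fgf15 and Fgfr3 kept, Fgfr4 not kept), and Nog was the 1 gene of 40 in the TGF-beta and BMP list. Axon guidance genes gave 4 of 53 (Efna2 kept; Efna3, Sema6a and Sema7a not kept). Ion channel and neural adhesion genes gave 5 of 76 (Kcnh3 and Kcnj4 kept, Cacna1g, Pcdh10 and Syt7 not kept). Kept means an overlap of at least 1 bp. At Kcnj4 only 4 bp of the region lay in miR-93-5p H3K27me3, against 1149 bp in scr. At Fgf15 the lengths were 87 bp in miR-93-5p and 1237 bp in scr.

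Matrix genes gave 4 of 53, Adamts9, Col12a1, Col1a1 and Mmp15, none of them kept. Tumour suppressors known as Polycomb targets gave 2 of 36, Rasl11b and Wif1, neither kept. Among the genes of the machinery itself, Phf19, which guides PRC2 to chromatin, was the 1 of 11 PRC2 genes. Of 17 PRC1 genes, Cbx8 and Pcgf3 lay on bivalent regions, though at Pcgf3 only 80 bp of the region was in scr H3K27me3. Kdm6b was the 1 of 3 H3K27 demethylases, with the 80 bp given above. No gene of 10 H3K4 methylases or of 14 constitutive genes lay on a bivalent region.

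RNA-seq, which the rule did not use, placed genes on bivalent regions between those with H3K4me3 alone and those with H3K27me3 alone. The deposited values are fragment counts scaled to transcript length and library size (FPKM) for loci assembled from each library's own reads, and a gene was measured where a locus matched it. In scr, 58.8% of the 405 genes were measured, where 49.8% of all protein-coding genes were. The share was 90.1% of 9141 genes with H3K4me3 alone and 4.43% of 1985 genes with H3K27me3 alone. Kept and not kept genes differed, with 38.2% of 89 and 64.6% of 316 measured in scr. Among those measured, the median level in scr was 5.33 FPKM on bivalent regions and 15.6 FPKM with H3K4me3 alone.

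**Figure D4:**
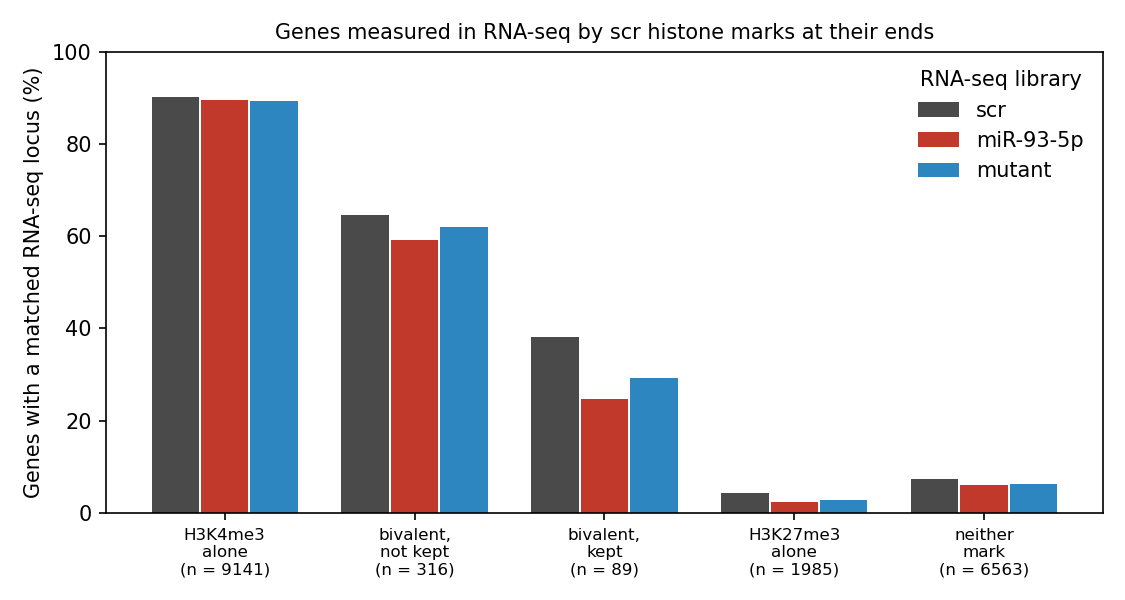
Share of protein-coding genes, in percent, with a matched RNA-seq locus in scr (grey), miR-93-5p (red) and mutant (blue), by the scr marks within 1000 bp of their ends, with the number of genes under each class. Bars for genes on bivalent regions lie between H3K4me3 alone and H3K27me3 alone, and the kept class goes from 38.2% in scr to 24.7% in miR-93-5p and 29.2% in mutant.

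The kept genes were measured least in miR-93-5p. Of the 89, scr measured 34, miR-93-5p 22 (24.7%) and mutant 26 (29.2%). Of the 316 not kept they measured 204, 187 (59.2%) and 196 (62.0%), in the same order. Over all genes the shares hardly moved, at 49.8%, 48.3% and 48.6%. The fall was not particular to kept genes. Genes with H3K27me3 alone went from 4.43% in scr to 2.42% in miR-93-5p and 2.92% in mutant. Genes with other mixes of the marks went from 40.9% to 27.8% and 31.8%. The mutant library therefore lay on the miR-93-5p side of scr for kept genes, in the absence of mutant chromatin data.

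Loci present in scr and missing in miR-93-5p were then counted, an analysis added after values were seen. Of genes at 1 FPKM or more in scr, 2.22% had no overlapping locus of any kind in miR-93-5p. On bivalent regions the count was 14 of 219 (6.39%), with 8 of 30 (26.7%) among kept and 6 of 189 (3.17%) among not kept. At 1 to 5 FPKM in scr, where the loss of a locus is commonest, it was 7 of 14 kept genes and 6 of 84 not kept. Beside these stood 32 of 1205 (2.66%) with H3K4me3 alone and 161 of 1609 (10.0%) of all genes. Most of those 161 lay outside both H3K4me3 alone and the bivalent regions, in classes of marks not counted apart here. In mutant, no locus overlapped 5 of the 30 kept genes (16.7%) and 5 of the 189 not kept (2.65%), beside 1.87% of all genes. The highest of the 14 genes without a miR-93-5p locus was Mboat2, a lysophospholipid acyltransferase on a kept region. It stood at 6.72 FPKM in scr (deposited bounds 6.08 to 7.35) with no locus in miR-93-5p or mutant. Next came Cmtm8, not kept, at 3.81 FPKM in scr and 2.42 in mutant. In the other direction 4 of 193 genes (2.07%) at 1 FPKM or more in miR-93-5p had no scr locus, where 0.604% of all genes did. The highest of these was Hddc3, not kept, at 3.47 FPKM in miR-93-5p and 2.19 in mutant.

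Levels were compared for the 180 of 405 genes measured in all 3 libraries with a mean of at least 1 FPKM. A further 5 were measured in all 3 but lay under that mean, and the rest lacked a matched locus in at least 1 library. Where 3 levels of a gene follow each other, they are in the order scr, miR-93-5p, mutant. Ratios are log2 of FPKM plus 1. The median ratio of miR-93-5p over scr was -0.14 for the 180 genes, -0.33 for 19 kept and -0.10 for 161 not kept, beside 0.031 for all 8413 genes. At least 2-fold higher in miR-93-5p were 10 of 180 genes (5.56%), beside 2.97% of all genes. At least 2-fold lower were 22 (12.2%), beside 3.85%. By class, 0 of 19 kept and 10 of 161 not kept were higher, and 5 kept (26.3%) and 17 not kept (10.6%) were lower.

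The share of genes that were lower exceeded that of all genes in each class of level. Among genes with a mean of 1 to 5 FPKM, 12.1% of 66 on bivalent regions and 6.36% of all were lower by 2-fold or more. From 5 to 20 FPKM the shares were 14.5% of 83 and 4.19%, and at 20 FPKM or more 6.45% of 31 and 2.64%. Genes with neither mark at their ends had a share like that of bivalent genes, 36 of 280 (12.9%). FPKM divides fragments by the length of each library's own transcript model. A second measure, the fragment number implied by the deposited bounds, is not divided by that length but depends on the extent of the model, and was also compared. It gave 34 of 170 genes lower (20%) and 24 higher (14.1%), beside 7.68% and 7.54% of all genes. By both measures 19 of the 170 genes were lower and 6 higher, beside 189 lower and 122 higher among all 8115 genes with both.

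The mutant comparison shares the scr library with the one above. Over scr, 7 of the 180 genes were at least 2-fold higher in mutant (3.89%) and 19 lower (10.6%), beside 2.63% and 3.64% of all genes. Set directly against mutant, miR-93-5p was at least 2-fold higher in 3 genes (1.67%) and lower in 7 (3.89%), beside 1.85% and 1.76% of all genes. Lower in miR-93-5p than in scr and in mutant were 6 genes, Camsap3 and Ptpn13 on kept regions and Adap1, Arhgef26, Bcar3 and Slc9a3r2 on regions not kept. Higher than in both were 3, Cnnm2, Qpct and Slc27a1, all not kept. Beside these 6 and 3 of 180 genes, 73 of all 8413 genes were lower than in both and 56 higher.

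**Figure D5:**
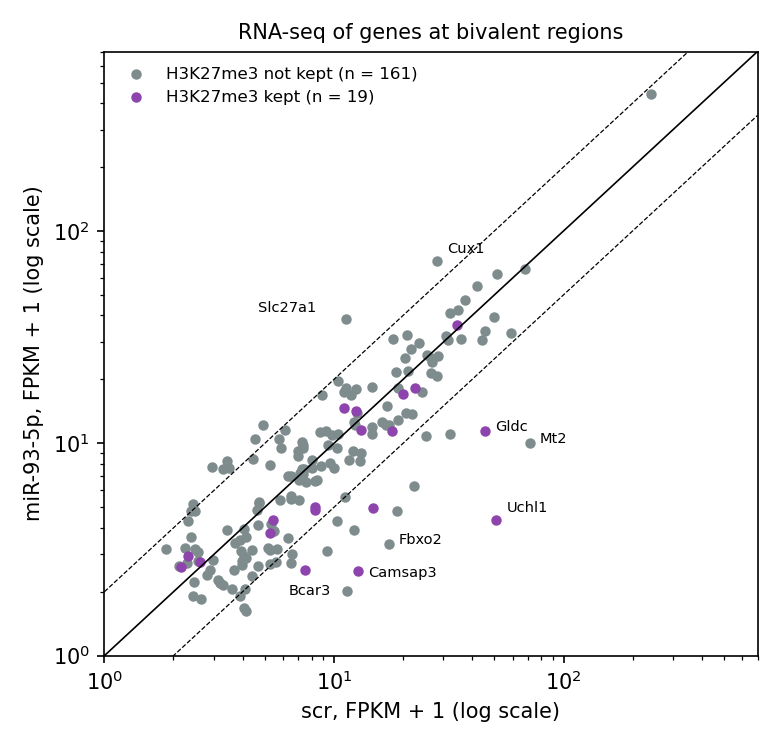
FPKM plus 1 in miR-93-5p against scr, both on log scales, for 161 genes on regions not kept (grey) and 19 on kept regions (purple), with lines at equal and at 2-fold levels. Points below the lower dashed line include Uchl1, Gldc and Camsap3 of the kept class, and no kept point lies above the upper one.

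Among kept genes the largest difference was at Uchl1, which stood at 50 FPKM in scr (47.2 to 52.8), while miR-93-5p had 3.34 (2.61 to 4.07) and mutant 1.99 (1.49 to 2.49). Its log2 ratio over scr was -3.55 in miR-93-5p and -4.09 in mutant, so both overexpression libraries were low. Gldc, which cleaves glycine in mitochondria and is high in liver, stood at 44.4, 10.5 and 17.7 FPKM, a ratio of -1.98 in miR-93-5p. Ptprn, a receptor-type phosphatase of secretory granules, stood at 13.8, 3.95 and 7.88 FPKM. In Gldc and Ptprn the mutant lay between the other libraries.

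Camsap3, which binds microtubule minus ends, stood at 11.7 FPKM in scr, while miR-93-5p had 1.51 and mutant 4.61. Ptpn13, a large tyrosine phosphatase, stood at 6.49, 1.53 and 8.74 FPKM, so that only miR-93-5p was low. Ocln, the tight junction protein occludin, stood at 7.28, 3.86 and 5.54 FPKM, a ratio of -0.77 that is short of 2-fold. No kept gene was 2-fold higher in miR-93-5p. Axin2 stood at 1.32, 1.95 and 1.95 FPKM (ratio 0.35), Ccnd2, cyclin D2, at 1.16, 1.60 and 3.90, and Tmem135 at 11.5, 13.1 and 13.5. For Tbc1d1 the ratio of 0.41 rests on a miR-93-5p value of 13.7 FPKM with deposited bounds of 0 to 46.1, and it cannot be read as a difference. Csnk1e, a casein kinase, and Fgfr3, a fibroblast growth factor receptor, each had a ratio of 0.07 by FPKM. By implied fragments the ratios were -0.80 for Csnk1e, -0.63 for Ccnd2 and 3.33 for Fgfr3, whose scr value of 1.62 FPKM has deposited bounds of 0.444 to 2.79, so these 3 ratios depend on the measure.

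Among genes not kept, Mt2 stood at 70.2 FPKM in scr (65.1 to 75.3), while miR-93-5p had 9.04 (6.62 to 11.4) and mutant 12.2 (10.4 to 14), a ratio of -2.83 in miR-93-5p. Fbxo2, an F-box protein that binds glycoproteins, stood at 16.3, 2.36 and 1.28 FPKM, and Aif1l, an actin-binding protein, at 17.8, 3.79 and 5.85. In these 3 genes miR-93-5p and mutant were both low. Bcar3, an adaptor in integrin signalling, differed, at 10.4 FPKM in scr, while miR-93-5p had 1.03 and mutant 10.0. Adap1 stood at 11.2, 2.91 and 13.4 FPKM, and Slc9a3r2 at 21.4, 5.33 and 12.9. Bcar3 and Adap1 were thus low in miR-93-5p alone of the 3 libraries. The regions of these genes differed in how much scr H3K27me3 they held. It covered all of the regions at Mt2 and Slc9a3r2, 1037 of 1205 bp at Aif1l and 409 of 2020 bp at Bcar3. At Fbxo2 it covered only 80 of 2760 bp, and at Adap1 41 of 2250 bp.

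The largest ratio upward was at Slc27a1, a fatty acid transport protein, at 10.2 FPKM in scr (9.35 to 11.1), while miR-93-5p had 37.7 (35.7 to 39.7) and mutant 11.5 (10.6 to 12.3), a ratio of 1.78 in miR-93-5p. Qpct, a glutaminyl cyclase, stood at 3.91, 11.2 and 2.69 FPKM. By FPKM both were high in miR-93-5p alone of the 3 libraries. Ckmt1, a mitochondrial creatine kinase, stood at 1.94, 6.73 and 5.78 FPKM, Cux1, a homeodomain factor, at 27, 70.9 and 60.0, and Erbb3, a receptor of the EGF receptor family, at 2.41, 7.25 and 8.06. Cnnm2 stood at 3.51, 9.43 and 3.73 FPKM, a ratio of 1.21, but its ratio by implied fragments was -0.32, so its direction depends on the measure. Qpct and Cux1 kept their direction by implied fragments but were short of 2-fold, at 0.82 and 0.71. In scr, H3K27me3 covered 891 of 1235 bp of the region at Qpct, 546 of 1041 bp at Ckmt1 and 1150 of 3760 bp at Erbb3. It covered 630 of 3303 bp at Slc27a1, 753 of 5695 bp at Cux1 and 231 of 4635 bp at Cnnm2.

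The 4 listed genes of the Polycomb machinery and the H3K27 demethylases on bivalent regions, Cbx8, Phf19, Pcgf3 and Kdm6b, were measured, and none was 2-fold apart on the scale of FPKM plus 1. Epop, a PRC2-associated protein outside the lists and not kept, was 2-fold lower, at 5.58, 2 and 2.73 FPKM (ratio -1.13 in miR-93-5p). Cbx8 stood at 5.33 FPKM in scr, while miR-93-5p had 2.60 and mutant 2.93 (ratio -0.82). The Cbx8 region had no H3K27me3 peak in miR-93-5p. Phf19 stood at 2.95, 2.12 and 2.19 FPKM, Pcgf3 at 17.1, 30.1 and 23.0, and Kdm6b at 5.98, 7.74 and 5.96. The direction for Cbx8 and Phf19 changed by implied fragments, with ratios of 0.31 and 0.90. Of the Wnt genes, Wnt7a stood at 2.71, 2.39 and 4.21 FPKM, Fzd6 at 3.39, 2.13 and 1.67, and Lgr5 at 0.847, 2.18 and 1.22, none of them 2-fold apart in miR-93-5p on that scale. Cacna1g, a calcium channel, was the 1 gene on the ion channel list that was 2-fold lower, at 9.33, 3.31 and 2.36 FPKM. Syt7, a synaptotagmin, stood at 1.49, 3.79 and 5.04 FPKM, where the scr value has deposited bounds of 0.302 to 2.67. With a pseudocount of 0.1 FPKM the ratios of Cbx8, Lgr5 and Syt7 passed 2-fold, at -1.01, 1.26 and 1.29. By implied fragments the ratios of Lgr5 and Syt7 were 3.06 and 4.64. Implied fragments follow the width of the deposited bounds as well as the level, so the size of these 2 ratios cannot be read as a difference in RNA.

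Many genes on these regions had no measured RNA. Emx2, Lhx6, Pitx3, Nog, Fgf15, Efna2, Efna3, Sema6a, Sema7a, Kcnh3, Pcdh7, Wif1, Adamts9, Col1a1, Dnah2 and Hoxa13 had no matched locus in any of the 3 libraries. This held on either side of the kept division, since Efna3 and Wif1 had no H3K27me3 in miR-93-5p and no measured RNA. Hoxb9 had a matched locus at 8.77 FPKM in scr alone, and loci overlapping it in the other libraries were not matched by length, so no ratio is given. Of the other genes with the highest H3K4me3 scores, Tead3, a factor of the Hippo pathway on a kept region, stood at 4.43, 3.33 and 3.76 FPKM, and Nr4a3 and Tulp1, also kept, were unmeasured. Not kept were Ppip5k1, an inositol phosphate kinase, at 8.43, 8.83 and 10.7 FPKM, and Cep126, a centrosomal protein, at 3.10, 1.06 and 1.09 (ratio -0.99 in miR-93-5p, and -1.46 with a pseudocount of 0.1 FPKM).

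The RNA of the cells held hepatocyte and biliary markers, and these moved between the libraries as well. Summed over 8 hepatocyte genes the level was 1052 FPKM in scr, while miR-93-5p had 445 and mutant 580, with 7, 5 and 7 genes measured and Apoa1 measured in none. Over 7 biliary and progenitor genes it was 578, 1506 and 1612 FPKM. Leukocyte markers summed to 9.19, 1.16 and 1.82 FPKM with Ptprc unmeasured, none of 3 endothelial genes was measured, and 2 of 6 mesenchymal genes, Fn1 and Vim, summed to 1085, 752 and 789 FPKM. The part of this shift in the values above was not tested, and in bulk RNA fewer cells of a type and less RNA per cell cannot be told apart.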

How the data were processed

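Of 14 samples, 6 peak lists and 3 RNA-seq tables were used. The authors' deposited peak lists give 1 score per peak, of 50 or more, called in each library alone, and scores were not compared between libraries. The deposited RNA-seq tables give FPKM with lower and upper bounds per locus, per the file headers. TopHat2, Cufflinks, Cuffdiff, CASAVA 1.4, Bowtie and MACS on mm9 are named per the submitters' processing notes, and settings and the use of input are not given in the sources used here. Gene positions were 35640 Ensembl mm9 loci that a deposited table lists at an FPKM of 0, of which 31043 had a symbol, and genes outside it were not analysed here.

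A gene belonged to a region within 1000 bp of either end, and where its regions differed it counted as kept if any was. A locus matched a gene at mutual best overlap and 0.5 of their joint length. Ratios used a pseudocount of 1 FPKM and a mean of at least 1 FPKM. Implied fragments are the number whose counting error gives the deposited bounds, compared with 10 added. They summed to 14589704 for scr, 15301761 for miR-93-5p and 19513879 for mutant. They treat the bounds as counting error only, so any other source of wide bounds lowers the number. Overlap and matching code was tested on simulated data. Python 3.11.15, pandas 2.3.3, numpy 2.4.6 and matplotlib 3.10.9 were used.

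Regions and gene lists were chosen with earlier results of these data known. Named genes were, per class, the 6 highest H3K4me3 scores, the 6 largest ratios in each direction, up to 4 per list the 5 widest and the 3 lowest-scoring regions. Classes of width and score, the printed starts, the 4 chromosomes, the list of equal length, Rhpn1, Mboat2, Cmtm8, Hddc3, Arhgef26, Epop and the genes given only as list members were chosen after values were seen. A result at 1 of the widest regions is not reported here.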

Additional observations from a re-analysis of the deposited data

How the results depend on the processing

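Requiring 50% of the H3K4me3 peak to be covered left 254 regions, 11.4% of them kept, and a score of at least 100 left 335, with 13.7% kept and 0.896% on scr H3K9me3. Counting a miR-93-5p H3K27me3 peak within 1000 bp gave 39.0% kept, and one anywhere on the same scr H3K27me3 peak gave 41.4%. The list of equal length, added after seeing the data, gave 307 regions and 30.3%. The cause was not tested. Genes 2-fold higher numbered 16 with a pseudocount of 0.1 FPKM and 24 by implied fragments, against 10, and genes lower 34 by implied fragments, against 22. Any overlapping locus raised the measured share to 70.4%. The ratio of Cnnm2 reversed to -0.32 by implied fragments. Of 37 named genes with that measure, 30 kept their side of 2-fold, and 6 others crossed it. The sign of 5 changed, at Cnnm2 and, short of 2-fold by both measures, at Cbx8, Ccnd2, Csnk1e and Phf19. The median ratio stayed negative in every setting run. RNA levels were not compared again for the regions left by the 50% rule.

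No paired analysis was possible because each state had 1 library per assay, and for the same reason no replicate was left out. Peak lists give no read depth, so absence of a called peak is not absence of the mark.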
